A study of Homo sapiens with 14 samples.

Results

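The nuclear-encoded respiratory chain subunits described here are 57 genes, chosen by symbol as structural subunits of complexes I to IV of the mitochondrial inner membrane. They comprise 35 subunits of complex I, 4 of complex II, 9 of complex III and 9 of complex IV. Each of the 57 symbols matched 1 of the 60587 genes in the deposited tables, and all 57 were among the 17838 genes that passed the filter on low counts. RNA was sequenced from cartilage pellets grown from WA01 (also known as H1), a human embryonic stem cell line. The pellets were kept in chondrogenic medium, which turns the cells into cartilage cells, for 21 days (4 libraries), 30 days (5 libraries) or 45 days (5 libraries). All 3 groups share the line and the medium, and no genetic change is named. The labels do not say whether replicates were separate cultures, so each p-value covers the spread between these libraries alone, which may be technical.

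The respiratory chain moves electrons from NADH and succinate to oxygen and uses the energy to pump protons out of the mitochondrial matrix. Complex I oxidises NADH, complex II oxidises succinate, complex III passes electrons to cytochrome c, and complex IV hands them to oxygen. Core subunits carry out the chemistry, and accessory subunits serve assembly and stability. Cartilage has no blood supply, and its cells are known to live at low oxygen and to rely heavily on glycolysis.

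Library totals were 18183776 to 33660704 expected counts. Levels below are either TPM, which allows for transcript length and can be compared between genes, or CPM, the counts scaled by TMM and by library size, which is used to compare a gene between libraries. Each change is a log2 fold change ± its standard error (SE), fitted with the quasi-likelihood test of edgeR. A gene was called when its Benjamini-Hochberg adjusted p over all genes tested was below 0.05. All adjusted p-values come from that test unless limma is named. The 8 chondrocyte markers summed to 39933 to 51243 CPM at day 21, 94725 to 230271 CPM at day 30 and 193696 to 305669 CPM at day 45. COL2A1 alone, the main collagen of cartilage, took 3.48% to 4.21%, 7.26% to 14.6% and 12% to 17.8% of all counts on these days. Day 45 replicate 1 is titled day 45 and its treatment label says 30 days. It was used by its title.

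The 5 day 30 libraries fall into 2 kinds where these subunits are concerned, replicates 3, 4 and 5 on one side and replicates 1 and 2 on the other. In 52 of the 57 subunits, replicates 3, 4 and 5 were all above replicates 1 and 2, against 23.1% of all genes tested. The median transcript of a subunit was 711 bases (range 347 to 3086), against 2224 bases for all genes tested, and 50 of the 57 lay in the shortest 20% of genes, up to 1297 bases. Across all genes, Spearman's rho between transcript length and how far a library lay from the all-library mean was -0.43, -0.52 and -0.47 in day 30 replicates 3, 4 and 5. The values were -0.01 and -0.07 in replicates 1 and 2, and 0.12 to 0.26 in the libraries of days 21 and 45, as a description across genes. Counts of calls that use day 30 are therefore given with all 5 libraries and with replicates 1 and 2 alone, as are most of the fitted changes. What set these libraries apart was not tested.

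Per length, the subunits were present at unequal levels within each complex. In complex I the mean over all libraries ran from 20.8 TPM for NDUFV3, an accessory subunit of the NADH-binding arm, to 443.4 TPM for NDUFA13, an accessory subunit also known as GRIM-19. The 4 genes of complex II lay close together, between 62.6 TPM for SDHA and 82.4 TPM for SDHC. In complex III the range was 28.8 TPM for UQCRFS1, the Rieske iron-sulfur protein, to 448.1 TPM for UQCRH, the hinge protein that helps cytochrome c meet cytochrome c1. In complex IV it was 70.9 TPM for COX7B to 526.9 TPM for COX7C, both small membrane subunits. The median subunit was at 100.9 TPM in complex I, 70.2 TPM in complex II, 113.6 TPM in complex III and 329.2 TPM in complex IV. The 3 genes with the highest TPM of complexes I, III and IV are all among the short transcripts.

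NDUFA13 had 483.1, 510.3, 502.9 and 569.6 TPM at day 21, 451.6, 385.4, 491.6, 472.4 and 551.8 TPM at day 30, and 379.9, 408.4, 406.4, 297.7 and 296.9 TPM at day 45. UQCRH had 467.0, 477.7, 446.3 and 449.1 TPM at day 21, 399.6, 442.8, 498.3, 612.4 and 564.4 TPM at day 30, and 337.9, 389.7, 403.2, 393.4 and 391.6 TPM at day 45. COX7C had 493.5, 491.1, 562.0 and 576.8 TPM at day 21, 491.9, 545.1, 552.1, 693.9 and 594.4 TPM at day 30, and 443.5, 490.1, 473.6, 476.6 and 492.3 TPM at day 45. In all 3, every day 45 library was at or below 492.3 TPM. In TPM the day 45 libraries of NDUFA13 and UQCRH lay wholly below those of day 21, while for COX7C the days overlapped. On that scale 48.9% of all genes were called lower by limma between these days. On the CPM scale NDUFA13 had 58.9 to 82.3 CPM at day 45 and 67.0 to 92.9 CPM at day 21. UQCRH had 77.2 to 92.2 CPM at day 45 and 63.4 to 79.1 CPM at day 21, so both overlapped in CPM.

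Summed, the 57 subunits were a smaller part of the transcripts at day 45. Their summed share of all TPM averaged 0.935% ± 0.0288 over the 4 libraries of day 21, 0.961% ± 0.0929 over the 5 of day 30 and 0.823% ± 0.0467 over the 5 of day 45 (mean ± SD). The libraries spanned 0.782% to 0.90% at day 45 and 0.911% to 0.977% at day 21, so these days did not overlap. At day 30 replicates 1 and 2 had 0.884% and 0.859%, and replicates 3, 4 and 5 had 0.953%, 1.07% and 1.04%. As a share of all counts the subunits made up 0.21% to 0.252% at day 45 and 0.273% to 0.31% at day 21. TMM scaling sets the libraries by their middle genes and not by their totals. On that scale the summed level averaged 2290 ± 189 CPM over the libraries of day 21, 3244 ± 657 CPM over those of day 30 and 2810 ± 141 CPM over those of day 45. The subunits were thus lower at day 45 than at day 21 as a share of all transcripts, and higher beside the middle gene. In bulk pellets, fewer cells of a type and less RNA per cell cannot be told apart.

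**Figure D1:**
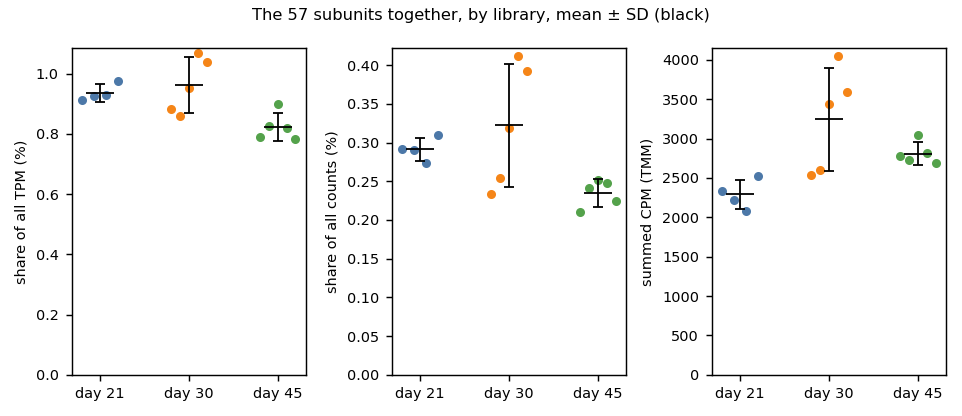
Summed level of the 57 subunits in each library (points) with mean ± SD (black) at days 21, 30 and 45, as percent of all TPM (left), percent of all counts (middle) and CPM after TMM scaling (right). The day 45 libraries, at 0.782% to 0.90% of TPM, lie below those of day 21, at 0.911% to 0.977%, while on the CPM scale they lie above them.

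Between day 45 and day 21, 22 of the 57 subunits rose and 2 fell on the CPM scale. Of all genes tested, 27.1% were called higher and 30.5% lower. The median log2 fold change was 0.26 for the subunits and -0.05 for all genes. With limma on log2(TPM + 1), 4 subunits were called higher and 19 lower, against 12% and 48.9% of all genes, and the medians were -0.16 for the subunits and -0.34 for all genes. The shift of the middle gene is therefore part of each TPM value, and on both scales the median subunit lay above the median gene. The libraries of the 2 days did not overlap for 24 subunits that were higher at day 45 and for 1 that was lower, on the CPM scale, against 25.3% and 26.2% of all genes. Under all 25 other settings tried, 5 subunits kept their call in the same direction: NDUFA7, NDUFB5, NDUFC1 and SDHA, higher at day 45, and NDUFB1, lower.

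**Figure D2:**
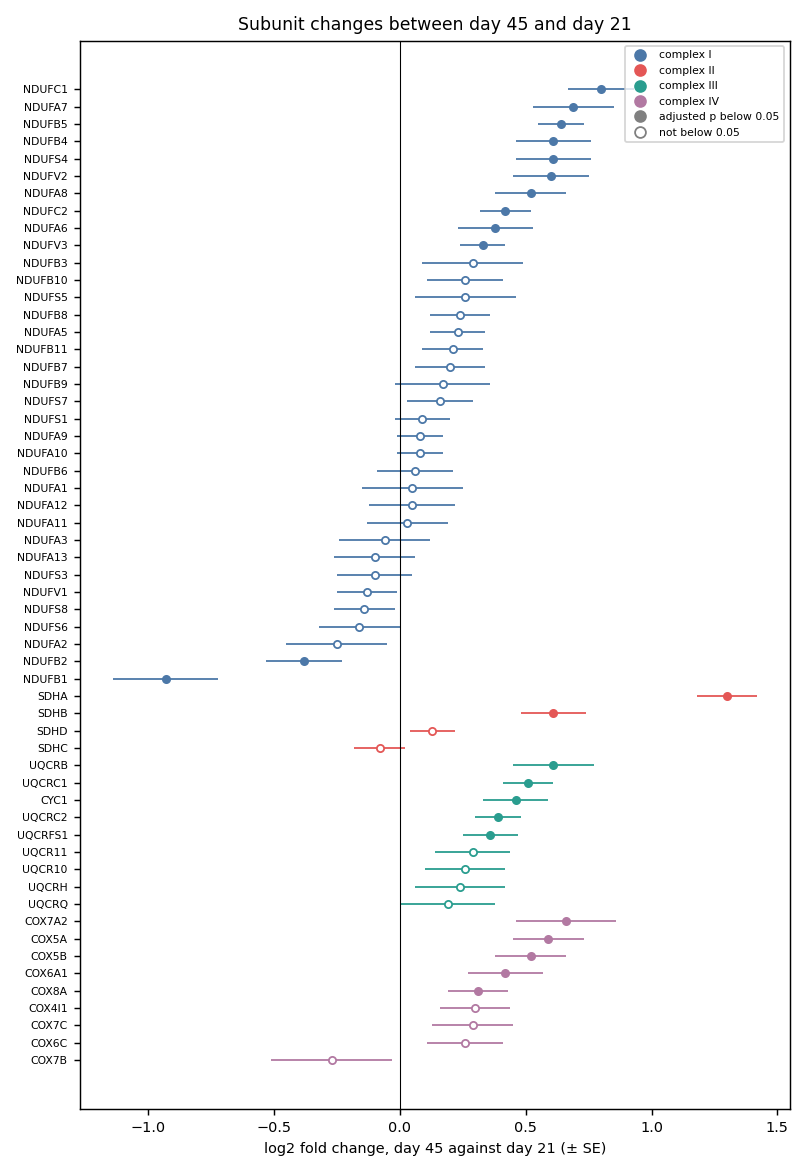
Log2 fold change (± SE) of each subunit between day 45 and day 21 on the CPM scale, ordered by size within complexes I to IV (colours). Filled points had an adjusted p below 0.05, which held for 22 subunits to the right of 0 and for NDUFB1 and NDUFB2 to its left.

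In complex I, 10 of 35 subunits rose and 2 fell, against 27.1% and 30.5% of all genes tested. The median log2 fold change was 0.17. On the TPM scale 3 were called higher by limma and 15 lower, against 12% and 48.9% of all genes, with a median of -0.20. NDUFC1 (ENSG00000109390, chromosome 4, 139266880 to 139302551 on the minus strand, GENCODE 29 on GRCh38), a small subunit of the membrane arm, changed the most upward. It had 31.4, 32.2, 37.8, 39.1 and 34.0 CPM at day 45, against 20.4, 19.5, 18.5 and 22.0 CPM at day 21, a log2 fold change of 0.80 ± 0.13 (adjusted p = 5.02e-05). Every day 45 library was above every day 21 library. NDUFB5, another membrane-arm subunit, had 42.4 to 48.8 CPM at day 45 and 27.0 to 30.9 CPM at day 21, with no overlap (0.64 ± 0.09, adjusted p = 1.04e-05). NDUFA7, an accessory subunit of the matrix arm, had 9.62 to 13.7 CPM at day 45 and 5.72 to 8.95 CPM at day 21 (0.69 ± 0.16, adjusted p = 0.00113). Of its exon bases, 32.3% are shared with AC010323.1 on the same strand, which averaged 3.11 CPM, and 6.3% with the ribosomal protein gene RPS28 on the other strand, which averaged 284.6 CPM. The library kit does not mark strand, so reads from the shared bases cannot be told apart. NDUFS4, a matrix-arm subunit that complex I needs to be stable, had 26.0 to 29.8 CPM at day 45 and 16.6 to 20.1 CPM at day 21 (0.61 ± 0.15, adjusted p = 0.00211).

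Of the 6 core subunits of complex I, 1 was called, against 27.1% of all genes called higher and 30.5% called lower. NDUFV2, an iron-sulfur protein of the NADH-oxidising module, rose, with 40.2 to 51.7 CPM at day 45 and 27.8 to 33.4 CPM at day 21 (0.60 ± 0.15, adjusted p = 0.0018). NDUFV1, which binds NADH and the flavin, had 54.9 to 70.1 CPM at day 45 and 59.3 to 75.3 CPM at day 21 (-0.13 ± 0.12, adjusted p = 0.365). NDUFS1, the largest iron-sulfur subunit, had 79.5 to 101.2 CPM at day 45 and 75.7 to 95.3 CPM at day 21 (0.09 ± 0.11, adjusted p = 0.475). For both the libraries of the 2 days overlapped. NDUFS3, NDUFS7 and NDUFS8, which line the path to ubiquinone, had log2 fold changes of -0.10, 0.16 and -0.14, and none was called.

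NDUFB1 (ENSG00000183648, chromosome 14, 92116122 to 92121917, minus strand), a small membrane-arm subunit with the shortest transcript of the 57, went the other way. It had 8.56, 8.33, 10.3, 13 and 8.37 CPM at day 45, against 18.1, 19.3, 16.7 and 19.9 CPM at day 21 (-0.93 ± 0.21, adjusted p = 0.00127). All 5 day 45 libraries were below all 4 of day 21, and in TPM they had 91.8 to 123.0 at day 45 and 256.7 to 297.5 at day 21. NDUFB2, also of the membrane arm, had 22.8 to 29.4 CPM at day 45 and 28.7 to 37.5 CPM at day 21, with an overlap (-0.38 ± 0.15, adjusted p = 0.0353). Its call was lost when day 21 replicate 1 or 4, or day 45 replicate 1, 2, 4 or 5, was left out, with NDUFB1 the 1 subunit then called lower. Exons of BRAF on the other strand cover 27.9% of its exon bases.

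In complex II, SDHA and SDHB rose and SDHC and SDHD were not called. SDHA (ENSG00000073578, chromosome 5, 218241 to 256700, plus strand), the flavoprotein that oxidises succinate, had the largest change of the 57 in the counts as deposited, and 0.92, close in size to the -0.93 of NDUFB1, with the reads of its copies added. It had 139.0, 106.9, 108.4, 102.3 and 143.6 CPM at day 45, against 50.2, 48.1, 45.4 and 51.4 CPM at day 21, a 2.46-fold difference (log2 fold change 1.30 ± 0.12, adjusted p = 7.56e-08). The lowest day 45 library lay above the highest of day 21, and also above the highest of day 30, which was 73.5 CPM. Per length it had 81.2 to 102.8 TPM at day 45 and 48.2 to 50.1 TPM at day 21. SDHB, the iron-sulfur subunit that passes the electrons on, had 36.9 to 47.6 CPM at day 45 and 23.5 to 32.0 CPM at day 21 (0.61 ± 0.13, adjusted p = 0.000586). The membrane anchors SDHC and SDHD, which bind ubiquinone, had 36.0 to 48.3 CPM and 35.1 to 39.6 CPM at day 45, against 40.0 to 48.9 CPM and 30.0 to 36.7 CPM at day 21 (-0.08 ± 0.10 and 0.13 ± 0.09). The libraries of the 2 days overlapped for both anchors. In TPM the anchors were called lower by limma, with log2 fold changes of -0.42 for SDHC and -0.31 for SDHD, and SDHB was not called (0.17).

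SDHA has 4 near-identical copies in the annotation, SDHAP1 to SDHAP4, and reads shared with them are divided by the counting program, so its level is uncertain by that share. The copies held 10.7% to 40.5% of the counts of SDHA and its copies in a library, with means of 32.4% at day 21, 32.2% at day 30 and 12.4% at day 45. SDHAP3 fell between day 45 and day 21, at 1.72 against 4.66 CPM on average (log2 fold change -1.45, adjusted p = 0.00016), and so did SDHAP4, at 6.46 against 8.52 CPM (-0.40, adjusted p = 0.034). SDHAP1, the copy with the most counts, was not called (-0.27). With the 4 copies added, the level averaged 136.8 ± 20.6 CPM over the 5 libraries of day 45 and 72.5 ± 6.93 CPM over the 4 of day 21 (mean ± SD), a 1.89-fold difference (log2 fold change 0.92 ± 0.11, adjusted p = 1.62e-06). The sum was 118.9 to 160.7 CPM at day 45, against 83.8 to 98.3 CPM at day 30 and 66.1 to 80.8 CPM at day 21, so the days still did not overlap. UQCRFS1 had up to 5.11% of its counts in copies. Counting only copies named after a subunit in this way, no other subunit had over 5% in any library. UQCRHL, a form of UQCRH, was not among the copies counted. It had 17.7 CPM in day 30 replicate 4, where UQCRH had 172.1 CPM. In day 45 replicate 5 the values were 4.95 and 87.7 CPM.

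In complex III, 5 of 9 subunits rose and none fell, against 27.1% and 30.5% of all genes tested. The median log2 fold change was 0.36. The called genes were the structural core proteins UQCRC1 and UQCRC2, the redox proteins UQCRFS1 and CYC1, and UQCRB, which contributes to the ubiquinone site. UQCRC1 had 113.0, 87.3, 97.1, 88.7 and 90.8 CPM at day 45, against 68.3, 66.0, 61.5 and 72.9 CPM at day 21 (0.51 ± 0.10, adjusted p = 0.000493). UQCRB had 115.4, 112.9, 125.2, 136.1 and 127.1 CPM at day 45, against 76.2, 70.0, 79.3 and 97.4 CPM at day 21 (0.61 ± 0.16, adjusted p = 0.00301). In both genes the days were fully apart. CYC1, or cytochrome c1, had 37.5 to 47.7 CPM at day 45 and 27.3 to 34.1 CPM at day 21 (0.46 ± 0.13, adjusted p = 0.00588). The small subunits UQCRQ, UQCRH, UQCR10 and UQCR11 had log2 fold changes of 0.19 to 0.29 and were not called. UQCRQ had the lowest value, with 44.3 to 59.1 CPM at day 45 and 37.6 to 51.2 CPM at day 21 (0.19 ± 0.19, adjusted p = 0.395). On the TPM scale no complex III subunit was called higher by limma and UQCRH was called lower (-0.27), against 12% and 48.9% of all genes.

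In complex IV, 5 of 9 subunits rose and none fell, against 27.1% and 30.5% of all genes tested. The median log2 fold change was 0.31. The catalytic subunits of this complex are encoded in mitochondrial DNA, so all 9 are accessory. COX7A2 (ENSG00000112695, chromosome 6, 75237675 to 75250323, minus strand), the widely expressed form of subunit VIIa, had 63.8, 61.8, 81.9, 76.4 and 63.8 CPM at day 45, against 47.3, 43.3, 38.6 and 46.6 CPM at day 21 (0.66 ± 0.20, adjusted p = 0.00874). COX5A and COX5B, which sit on the matrix side of the enzyme, had 38.7 to 46.9 CPM and 45.8 to 55.9 CPM at day 45, against 25.1 to 34.2 CPM and 30.3 to 39.6 CPM at day 21 (0.59 ± 0.14 and 0.52 ± 0.14). For these 3 genes no day 45 library was as low as any of day 21. COX6A1, the form used outside muscle, and COX8A were also called, at 0.42 and 0.31. COX7B had 14.8, 15.8, 22.3, 26.0 and 18.3 CPM at day 45, against 25.2, 21.4, 22.2 and 25.2 CPM at day 21 (-0.27 ± 0.24, adjusted p = 0.356), with an overlap. On the TPM scale no complex IV subunit was called higher by limma and COX7B was called lower (-0.64), against 12% and 48.9% of all genes.

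**Figure D3:**
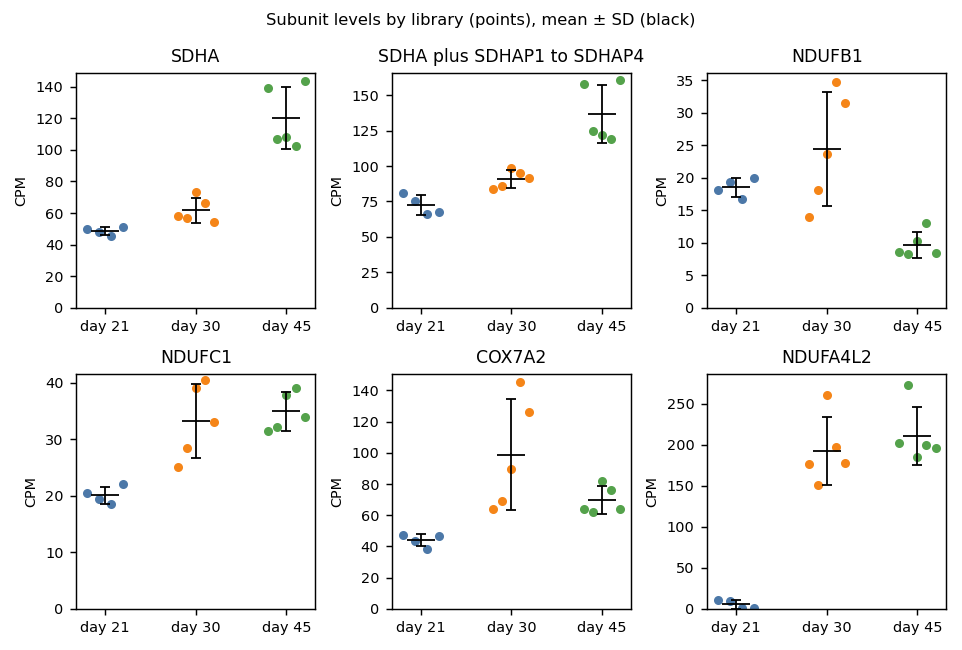
CPM in each library (points) with mean ± SD (black) for SDHA, SDHA with its 4 copies, NDUFB1, NDUFC1, COX7A2 and NDUFA4L2 at days 21, 30 and 45. SDHA is highest at day 45 (102.3 to 143.6 CPM), NDUFB1 lowest there (8.33 to 13 CPM), and COX7A2 is spread over 64.2 to 145.1 CPM at day 30.

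The promoters of the subunits were read for motifs, since many of these genes moved the same way. The 250 bases upstream of the RefSeq start (GRCh38.p14) were held for 49 of the 57 genes, and of several listed starts the first was used. They were searched on both strands for 3 motifs known from genes of mitochondrial proteins, GCGCATGC for NRF1, CCGGAAGT for ETS factors such as GABPA, and AAGATGGC for YY1, none of which overlaps another. The NRF1 letters were in 8 of the 49 windows (16.3%), in 2.81% of all 27305 windows and in 4.43% of those of genes tested. The ETS letters were in 8 of 49 (16.3%), 3.64% and 6.53%, and the YY1 letters in 0 of 49, 1.37% and 1.77%. Of 14 subunits with a motif, 6 were called higher at day 45 against day 21 (median log2 fold change 0.26), and of 35 with none, 12 were (median 0.24). The stretches below end before any annotated exon and are shown 5′ to 3′ with motif letters in capitals. COX5B has both motifs, NDUFB4 has 2 overlapping NRF1 matches, SDHB has 1, and NDUFC1 and COX7A2, with the largest rises of complexes I and IV, have none. COX5B lies at chr2:97645812-97646039 (plus strand), NDUFB4 at chr3:120596086-120596308 (plus), SDHB at chr1:17054171-17054282 (minus), NDUFC1 at chr4:139302552-139302801 (minus) and COX7A2 at chr6:75250324-75250548 (minus).
COX5B: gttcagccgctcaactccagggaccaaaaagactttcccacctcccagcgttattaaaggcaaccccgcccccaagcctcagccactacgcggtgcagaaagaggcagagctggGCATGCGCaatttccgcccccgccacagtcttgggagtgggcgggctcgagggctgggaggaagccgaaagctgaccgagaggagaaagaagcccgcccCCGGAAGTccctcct
NDUFB4: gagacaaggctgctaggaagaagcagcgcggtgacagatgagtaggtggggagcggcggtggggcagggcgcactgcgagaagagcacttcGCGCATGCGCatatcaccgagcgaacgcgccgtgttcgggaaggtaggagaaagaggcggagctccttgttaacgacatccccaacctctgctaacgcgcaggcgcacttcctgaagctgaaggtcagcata
SDHB: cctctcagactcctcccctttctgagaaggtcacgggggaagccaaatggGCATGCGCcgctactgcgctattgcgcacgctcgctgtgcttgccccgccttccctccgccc
NDUFC1: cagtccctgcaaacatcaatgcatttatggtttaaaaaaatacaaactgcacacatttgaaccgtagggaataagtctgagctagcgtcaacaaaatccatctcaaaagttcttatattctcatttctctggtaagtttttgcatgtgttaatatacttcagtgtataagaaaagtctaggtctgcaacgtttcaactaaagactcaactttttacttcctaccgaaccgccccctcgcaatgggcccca
COX7A2: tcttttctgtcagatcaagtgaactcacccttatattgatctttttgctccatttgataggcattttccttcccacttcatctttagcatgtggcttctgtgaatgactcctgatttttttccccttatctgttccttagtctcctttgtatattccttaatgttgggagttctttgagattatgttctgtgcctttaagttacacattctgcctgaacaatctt

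Between day 30 and day 21, with all 5 day 30 libraries, 44 of the 57 subunits were called higher and NDUFS1 was called lower. Of all genes, 27.2% were called higher and 27.1% lower. The median log2 fold change was 0.47 for the subunits and 0.02 for all genes. All 9 subunits of complex IV, 8 of 9 of complex III, 3 of 4 of complex II and 24 of 35 of complex I were among those called higher. With day 30 replicates 1 and 2 alone, 13 subunits were called higher and 2 lower, against 19.6% and 21.7% of all genes, and the median subunit was at 0.17. All 13 were also among the 44. Libraries did not overlap for 22 subunits that were higher and for 0 that were lower, against 20% and 22.4% of all genes. With limma on log2(TPM + 1) the counts were 9 higher and 11 lower, against 10% and 50.6% of all genes, the median subunit was at -0.03 and the median gene at -0.35.

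The 13 subunits called higher in replicates 1 and 2 alone were NDUFA7, NDUFA10, NDUFB5, NDUFC1, NDUFC2, NDUFS4, NDUFV2 and NDUFV3 of complex I, UQCRC2, UQCRB, UQCR10 and UQCR11 of complex III, and COX7A2 of complex IV. COX7A2 had 64.2, 69.3, 89.6, 145.1 and 126.4 CPM at day 30, against 38.6 to 47.3 CPM at day 21. All 5 day 30 libraries were higher, and the fitted log2 fold change was 1.17 ± 0.20 with all of them and 0.60 ± 0.12 with replicates 1 and 2 (adjusted p = 0.000121 and 0.000883). UQCRB had 117.4, 145.6, 137.6, 233.4 and 157.4 CPM at day 30, against 70.0 to 97.4 CPM at day 21, with values of 0.97 ± 0.16 and 0.70 ± 0.12. NDUFA7 had 11.3, 12.2, 15.6, 17.2 and 14.6 CPM at day 30, against 5.72 to 8.95 CPM at day 21, with values of 1.02 ± 0.16 and 0.74 ± 0.18. These 3 had the largest rises of complexes IV, III and I, and in each day 30 replicates 1 and 2 were above every day 21 library as well.

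Other subunits lay clear of day 21 in replicates 3 to 5 and close to it in replicates 1 and 2. NDUFS5, an accessory subunit of complex I on its intermembrane side, had 36.4 and 39.0 CPM in day 30 replicates 1 and 2 and 66.3, 77.9 and 72 CPM in replicates 3, 4 and 5, against 35.6 to 50.4 CPM at day 21. COX7B had 19.9 and 25.3 CPM, then 35.9, 55.7 and 47.8 CPM, against 21.4 to 25.2 CPM at day 21. The fitted change of COX7B was 0.65 ± 0.24 with all 5 libraries (adjusted p = 0.0331) and -0.07 ± 0.19 with the first 2 (adjusted p = 0.803). NDUFS6 and NDUFS8, called lower in replicates 1 and 2 alone at -0.44 ± 0.13 and -0.34 ± 0.11, were at 0.06 and -0.02 with all 5 libraries. COX4I1, a regulatory subunit of complex IV and its lowest change here, had 99.4, 98.4, 138.1, 160.2 and 162.9 CPM at day 30, against 85.1 to 104.8 CPM at day 21 (0.44 ± 0.14 with all 5, 0.02 ± 0.11 with the first 2).

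NDUFS1 was called lower at day 30. It had 78.4, 71.6, 61.8, 60.7 and 58.5 CPM at day 30, against 75.7, 78.3, 88.6 and 95.3 CPM at day 21 (-0.35 ± 0.11, adjusted p = 0.0105). With replicates 1 and 2 alone the value was -0.18 ± 0.11 (adjusted p = 0.227). Its transcript of 2845 bases is among the longest of the 57. SDHB had 29.4, 31.0, 39.4, 44.7 and 37.6 CPM at day 30, against 23.5 to 32.0 CPM at day 21, the largest change of complex II (0.45 ± 0.13, and 0.17 ± 0.13 with the first 2 libraries). SDHC had 42.5 to 55.8 CPM at day 30 and 40.0 to 48.9 CPM at day 21 (0.06 ± 0.10, and -0.07 with the first 2), and UQCRC1 had 61.9 to 85.5 CPM at day 30 and 61.5 to 72.9 CPM at day 21 (0.13 ± 0.10, and -0.04 with the first 2). SDHC and UQCRC1 overlapped between the days.

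**Figure D4:**
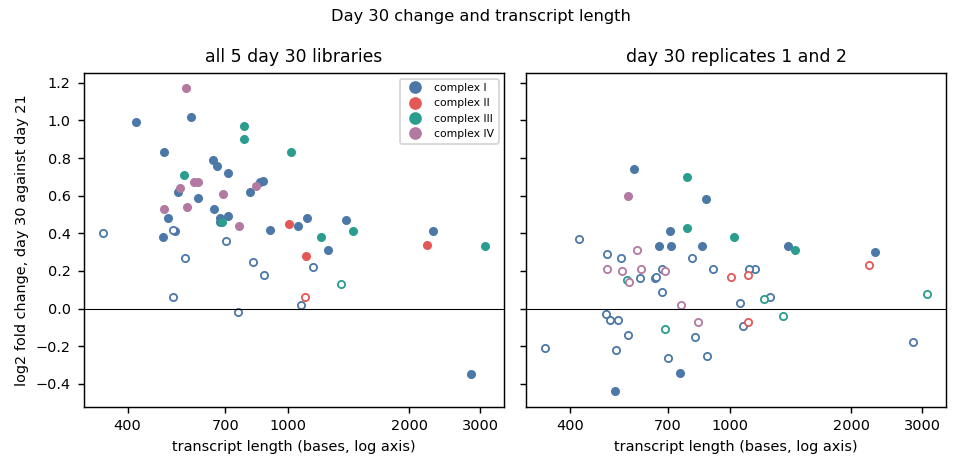
Log2 fold change of each subunit between day 30 and day 21 on the CPM scale against transcript length in bases (log axis), with all 5 day 30 libraries (left) and with replicates 1 and 2 alone (right); filled points had an adjusted p below 0.05. On the left 44 points are filled above 0 and the shorter transcripts lie higher, and on the right 13 are.

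The size of the day 30 change followed transcript length among the subunits. Over the 57, Spearman's rho between log2 fold change and length was -0.40 with all 5 libraries and 0.06 with replicates 1 and 2 alone, as a description of genes that share these libraries. All genes of up to 1297 bases had a median log2 fold change of 0.40 with all 5 libraries and 0.14 with the first 2. The subunits' medians of 0.47 and 0.17 lay near these values. With a per-library offset fitted to length, 15 subunits were called higher and 4 lower, against 25.1% of all genes in each direction, and their median was 0.10.

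**Figure D5:**
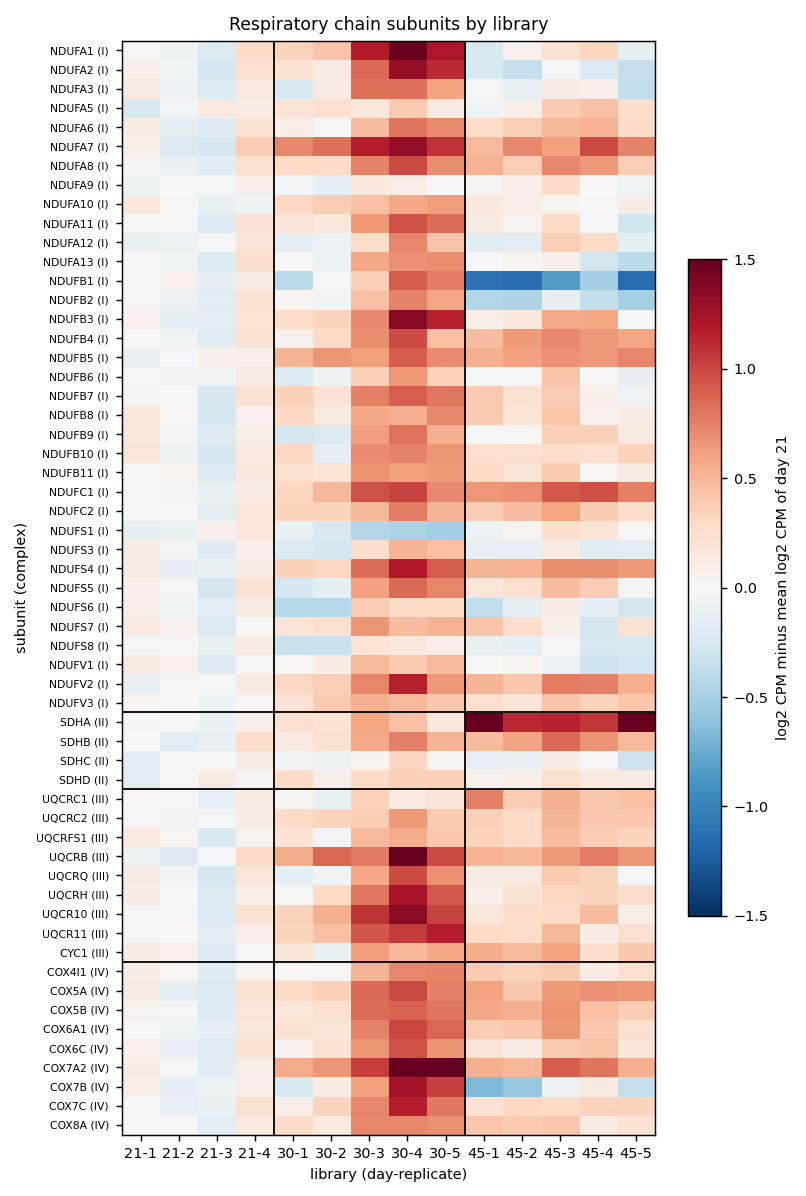
Log2 CPM of each subunit (rows, by complex) in each library (columns, day and replicate) minus its mean log2 CPM at day 21, with colours capped at -1.5 and 1.5. Day 30 replicates 3, 4 and 5 are the reddest columns, SDHA is red at day 45 and NDUFB1 blue.

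Between day 45 and day 30, with all libraries, 3 subunits rose and 19 fell. Of all genes, 27.6% were called higher and 28.7% lower, and the medians were -0.22 for the subunits and -0.04 for all genes. With the length offset the direction turned, with 29 subunits called higher and 4 lower, against 33.0% and 23.2% of all genes, and a median of 0.25. With day 30 replicates 1 and 2 alone, 10 subunits were called higher and 4 lower, against 19.6% and 19.3% of all genes, and the median subunit was at 0.07. The fits without the offset, with all libraries and with replicates 1 and 2 alone, both called SDHA and UQCRC1 higher. Both called NDUFA2, NDUFA10, NDUFB1 and NDUFB2 lower. Among these, the length offset also called SDHA and UQCRC1 higher and NDUFA2 and NDUFB1 lower, but did not call NDUFA10 or NDUFB2 lower. Libraries did not overlap for 3 subunits that were higher and 5 that were lower, against 19.8% and 18.6% of all genes. The count of 19 fell to 12 without day 30 replicate 5.

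SDHA had 102.3 to 143.6 CPM at day 45, against 58.1, 56.7, 73.5, 66.1 and 54.3 CPM at day 30 (0.96 ± 0.11, adjusted p = 2.82e-06), and 1.05 ± 0.14 against replicates 1 and 2. With its copies added the change was 0.59 ± 0.10 (adjusted p = 0.00013). UQCRC1 had 87.3 to 113.0 CPM at day 45, against 69.1, 61.9, 85.5, 74.3 and 76.7 CPM at day 30 (0.38 ± 0.10, and 0.53 ± 0.11 against replicates 1 and 2). NDUFS1 had 79.5 to 101.2 CPM at day 45, against 58.5 to 78.4 CPM at day 30 (0.45 ± 0.10, adjusted p = 0.00141), and 0.25 ± 0.11 against replicates 1 and 2 (adjusted p = 0.0814). In these 3 genes every day 45 library was above every day 30 library.

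NDUFB1 fell furthest, with 8.33 to 13 CPM at day 45, against 14, 18.1, 23.6, 34.7 and 31.5 CPM at day 30 (-1.33 ± 0.21, adjusted p = 4.88e-05), and -0.74 ± 0.16 against replicates 1 and 2. NDUFA2, an accessory subunit of the matrix arm, had 12.3 to 15.4 CPM at day 45, against 18.5, 17.1, 28.3, 39.0 and 34.3 CPM at day 30 (-1.04 ± 0.19, and -0.43 ± 0.14 against replicates 1 and 2). For both, no library of day 45 reached the lowest of day 30. UQCR10 had 30.4 to 39.4 CPM at day 45 and 36.1, 41.0, 60.3, 72 and 57.4 CPM at day 30 (-0.64 ± 0.15, and -0.18 ± 0.12 against replicates 1 and 2), with an overlap. COX7B had 14.8 to 26.0 CPM at day 45 and 19.9 to 55.7 CPM at day 30 (-0.92 ± 0.23, and -0.22 ± 0.18). COX5A had 38.7 to 46.9 CPM at day 45 and 35.9 to 58.2 CPM at day 30 (-0.08 ± 0.13, and 0.26 against replicates 1 and 2), and SDHD had 35.1 to 39.6 CPM at day 45 and 35.4 to 43.1 CPM at day 30 (-0.15 ± 0.08, and -0.07). COX5A and SDHD overlapped between the days and were not called in either fit.

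The later change was also set against the earlier one, as day 45 against day 30 minus day 30 against day 21. With all libraries this difference was negative and called for 38 subunits and positive for 2, NDUFS1 and SDHA, against 27.5% and 25.3% of all genes, with a median of -0.71. With the length offset it was called negative for 6 and positive for 10, against 21.6% and 25.3% of all genes, with a median of 0.19. With day 30 replicates 1 and 2 alone it was called negative for 3 and positive for 4, against 15.2% and 15.4% of all genes, with a median of -0.06. The 3 were NDUFA10, NDUFB5 and UQCRB, and the 4 were NDUFB9, NDUFS6, SDHA and UQCRC1. For SDHA the difference was 0.62 ± 0.20 (adjusted p = 0.0147) and 0.82 ± 0.25 (adjusted p = 0.0199). With its copies added it was 0.26 ± 0.18 and not called (adjusted p = 0.235). No subunit kept its call for this difference under all 25 settings.

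A few subunits and alternative forms lie outside the 57. NDUFAB1, the acyl carrier protein bound in complex I, and CYCS, or cytochrome c, rose between day 45 and day 21 by 0.49 ± 0.10 and 0.38 ± 0.11 (log2, CPM scale) and were at 0.05 and 0.07 in TPM. NDUFA4 and COX6B1, both complex IV subunits, were at 0.21 and 0.31 and not called. NDUFA4L2, a form of NDUFA4 known as a target of hypoxia-inducible factor, had 201.6, 272.4, 184.8, 199.5 and 195.8 CPM at day 45 and 150.7 to 261.0 CPM at day 30, against 10.3, 9.4, 1.06 and 0.822 CPM at day 21. Its change between day 45 and day 21 was 5.28 ± 0.65 (adjusted p = 1.22e-05), and 5.32 in TPM by limma. COX7A2L, a form of COX7A2 that joins complexes III and IV, had 80.4 to 99.8 CPM at day 45 and 47.7 to 54.4 CPM at day 21 (0.80 ± 0.12, adjusted p = 1.30e-05). In TPM by limma COX7A2L was at 0.26 and not called (adjusted p = 0.053). COX4I2, COX6A2, COX7A1, COX7B2 and COX8C, forms known from lung, muscle or testis, did not pass the filter, with means of at most 0.289 CPM on any day.

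Factors that assemble the complexes were called in both directions. Between day 45 and day 21, where 27.1% of all genes were called higher and 30.5% lower, 6 of 15 complex I assembly factors were called higher and 2 lower (median log2 fold change -0.04), and NDUFAF1 and NDUFAF3 were at 0.60 and 0.76 while NDUFAF6 was at -0.91. For complexes II and III the counts were 3 and 1 of 10, with SDHAF1 and SDHAF4, which serve complex II, at 0.52 and 0.69 and UQCC1 at -0.44. For complex IV they were 7 and 7 of 26, with SURF1 and COX18 at 0.88 and 0.69 and COA7 at -0.65. These values are on the CPM scale. In TPM by limma, NDUFAF1, SDHAF1 and SDHAF4 were at 0.18, 0.07 and 0.11 and not called. NDUFAF3, SURF1 and COX18 were still called higher there, at 0.31, 0.40 and 0.47. NDUFAF6, UQCC1 and COA7 were still called lower, at -1.19, -0.73 and -0.86. Among markers of other cell types, the 8 skeletal muscle markers, of which 2 were tested, summed to 15.9 to 28.2 CPM at day 45, 13.7 to 29.5 CPM at day 30 and 6.88 to 8.53 CPM at day 21. TNNT3 averaged 19.9 CPM at day 45 and 2.27 CPM at day 21, and MYH3 2.19 CPM and 4.82 CPM. Cardiac muscle markers (6, with 1 tested) and adipocyte markers (6, with 2 tested) summed to at most 1.24 and 2.16 CPM in any library. The 3 hypertrophic chondrocyte markers, mainly COL10A1, summed to 1569.9 to 4091.4 CPM at day 45, 323.2 to 444.4 CPM at day 30 and 31.2 to 59.7 CPM at day 21. The 5 endothelial markers summed to 8.52 to 11.8 CPM at day 45, 6.41 to 15.9 CPM at day 30 and 24 to 32.4 CPM at day 21, and the 5 of pluripotent stem cells to 0.353 to 1.43, 3.71 to 6.4 and 13.2 to 16.8 CPM on those days. The 6 epithelial markers, of which KRT8 was the highest, summed to 51.5 to 83.3 CPM at day 45. They had 50.3 to 63.4 CPM at day 30 and 59.1 to 79.1 CPM at day 21. The 6 neuronal markers, of which TUBB3 was the highest, had 21.4 to 26.7, 23.5 to 29.5 and 21.0 to 26.2 CPM on those days. The part of these cell types in the subunits' levels was not tested.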

How the data were processed

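The submitters' processing notes name STAR 2.4.2a, RSEM 1.2.25 and GRCh38, and the sources used here do not give the annotation release. Per the labels, libraries were made with an unstranded TruSeq v2 kit. Per the file headers, the deposited values are expected counts, TPM and transcript length, per gene and library. Expected counts were rounded, filtered with filterByExpr, scaled by TMM and fitted with edgeR 4.0.16 (quasi-likelihood, robust, 1 mean per day, all 14 libraries). The SE is the log2 fold change divided by the square root of F. CPM and log2 fold changes were computed from the deposited expected counts, not by the authors. TPM was tested with limma 3.58.1 on log2(TPM + 1). Symbols were known for 60333 identifiers and 58400 were found in GENCODE 29, used for coordinates. The fits were tested on simulated data.

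Full values are given for the highest and lowest change per complex and comparison, the highest TPM per complex and all of complex II. The members and lists were chosen with earlier results of these data known. Other subunits and the examples NDUFS4, NDUFV1, NDUFV2, NDUFS5, NDUFA2, NDUFB2, NDUFB5, COX5A and COX5B were picked after their values were seen. Alternatives were DESeq2 1.42.0, its size factors in edgeR, no filter, limma on TPM with pseudocounts of 1 and 0.1, a length offset (spline with 6 degrees of freedom), a replicate block, leaving out libraries, other placings of day 45 replicate 1 and, chosen after seeing the data, copies added to their subunit.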

Additional observations from a re-analysis of the deposited data

Results flagged for a closer look

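In 171 groups of libraries of 1 subunit and day, 6 had a library far from the rest, where chance gives about 1 in 20. NDUFB6 had 21.9 CPM in day 21 replicate 4, against 19.5 to 19.8 CPM in the other libraries of that day. NDUFB6 also had 27.0 CPM in day 45 replicate 3, against 18.3 to 20.3 CPM. NDUFS3 had 36.4 CPM in day 45 replicate 3, against 29.5 to 30.9 CPM. SDHD had 35.4 CPM in day 30 replicate 2, against 41.2 to 43.1 CPM. UQCRC2 had 83.6 CPM in day 21 replicate 4, against 74.3 to 75.5 CPM. UQCRC2 also had 119.9 CPM in day 30 replicate 4, against 94.5 to 101.6 CPM. In day 45 replicate 3, 33 of the 57 subunits had their highest value of that day, in day 21 replicate 4 it was 40, and in day 30 replicate 4 it was 38.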

How the results depend on the processing

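Fits with all 5 day 30 libraries are limited by the split of that day, TPM by the shift of its median gene (-0.34 between day 45 and day 21), and depth by totals of 18183776 to 33660704 counts. In all, 25 other settings were tried, 14 of them leaving out 1 library, and they include those given above. Same-numbered libraries did not deviate together (13 correlations of -0.25 to 0.12). The deviations hold the day 30 split, so these values cannot show whether the numbers mark a shared culture or batch. A replicate block gave 36 subunits higher and 1 lower between day 30 and day 21, 3 and 19 between day 45 and day 30, 21 and 2 between day 45 and day 21, and 2 and 37 for the later minus the earlier change.

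With limma on log2(TPM + 1) and on log2(TPM + 0.1), 9 subunits were called higher and 11 lower at day 30 against day 21, 4 and 19 at day 45 against day 21, and 4 and 13 for the later minus the earlier change, with medians of -0.03, -0.16 and -0.10. With day 30 replicates 1 and 2 alone the counts were 13 and 2 for day 30 against day 21, 10 and 4 for day 45 against day 30, and 4 and 3 for the later minus the earlier change, with medians of 0.17, 0.07 and -0.06. With the length offset they were 15 and 4, 29 and 4, and 10 and 6, with medians of 0.10, 0.25 and 0.19, and 34 were called higher at day 45 against day 21. With the replicate block and the length offset together they were 14 and 3, 29 and 4, and 10 and 7, with medians of 0.13, 0.25 and 0.17. With day 45 replicate 1 placed at day 30, 10 were lower at day 45 against day 30, 1 was lower at day 45 against day 21 and 1 was positive for the later minus the earlier change. That last count was also 1 with named copies added. Leaving out 1 library gave 12 to 27 lower at day 45 against day 30, with 12 without day 30 replicate 5, and 1 to 2 lower at day 45 against day 21. The cause of these differences was not tested.

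The sign of a called change turned as follows. For day 30 against day 21 it turned with replicates 1 and 2 alone in NDUFA3 and NDUFA13 (-0.06 each), NDUFB2 (-0.03), UQCRQ (-0.11) and COX7B (-0.07). With the length offset it turned in NDUFA3 (-0.03), NDUFA13 (-0.08, or -0.07 with the block), NDUFB2 (-0.12) and SDHD (-0.03, or -0.02 with the block). In TPM it turned in NDUFA3 (-0.01), UQCRQ and COX8A (-0.02), NDUFA6 (-0.03), SDHB and UQCRC2 (-0.04), NDUFB8 (-0.05), NDUFB10 (-0.06), SDHA (-0.09), CYC1 and COX4I1 (-0.11), UQCRFS1 (-0.13 or -0.14), NDUFA13 (-0.14), NDUFV1 (-0.15), NDUFB2 (-0.18), NDUFV3 (-0.18 or -0.19), NDUFS7 (-0.20 or -0.21), NDUFA10 (-0.23) and SDHD (-0.32). For day 45 against day 21 it turned in TPM in COX6A1 (-0.02), NDUFA6 (-0.05), NDUFV3 (-0.06 or -0.07), UQCRC2 (-0.06), UQCRFS1 (-0.08) and COX8A (-0.13). For day 45 against day 30 it turned with replicates 1 and 2 alone in COX7A2 (0.05), UQCRH (0.07) and COX7C (0.07), and in TPM in NDUFA10 (0.04). With the length offset it turned there in NDUFA3 (0.04), NDUFB3 (0.05), NDUFA13 (0.06), COX7A2 (0.06, or 0.07 with the block), NDUFB11 (0.07 or 0.08), UQCRB (0.09 or 0.10), UQCRH (0.10 or 0.11), NDUFB7 (0.14) and COX7C (0.16 or 0.17).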

Other observations

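Other mitochondrial gene lists were read between day 45 and day 21 on the CPM scale, where 27.1% of all genes tested were called higher and 30.5% lower. Of 18 ATP synthase genes, 3 were called higher and 2 lower (median log2 fold change 0.03), with ATP5F1B, the catalytic beta subunit, at 0.30 ± 0.10 and ATP5IF1, the inhibitor of the reverse reaction, at -0.50 ± 0.12. Of 14 citrate cycle genes, 5 were called higher and 2 lower (median 0.22), among them SUCLG2 at 0.89 ± 0.10 and IDH3A at 0.67 ± 0.11. Of 12 genes of the pyruvate dehydrogenase complex and its regulators, 8 were called higher and 1 lower (median 0.47). PDK3, a kinase that switches the complex off, had 52.1 CPM at day 45 and 12.8 CPM at day 21 on average (2.02 ± 0.18), while PDK2, another such kinase, had 14.4 and 26.3 CPM (-0.87 ± 0.10).

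Of 18 genes of mitochondrial mass and protein import, 6 were called higher and 1 lower (median 0.17), with HSPA9 at 1.13 ± 0.10, VDAC2 at 0.92 ± 0.09 and TOMM20 at 0.75 ± 0.11. Of 13 regulators of mitochondrial biogenesis, 4 were called higher and 2 lower (median -0.06), with PPARGC1B at 1.40 ± 0.24, ESRRA at 0.75 ± 0.13 and TWNK, the helicase of mitochondrial DNA, at -0.82 ± 0.10. Of 72 mitochondrial ribosomal protein genes, 19 were called higher and 8 lower (median 0.11), with MRPL2 at 0.81 ± 0.12, MRPL17 at 0.71 ± 0.12 and MRPS25 at -0.77 ± 0.12. Of 16 hypoxia and mitophagy genes, 14 were called higher and none lower (median 1.38). These included the peptide hormone gene ADM at 5.94 ± 0.43, EPAS1, which encodes hypoxia-inducible factor 2 alpha, at 3.22 ± 0.18, and MXI1 at 3.14 ± 0.16. Over all genes tested, the median was -0.05. On the TPM scale, where the median of all genes was -0.34, the named genes kept their sign except ATP5F1B, which was at -0.13. ATP5F1B, IDH3A (0.15), PPARGC1B (0.18), ESRRA (0.30) and TOMM20 (0.34) were not called there by limma. PPARGC1B was also low in level, with means of 2.37 CPM at day 45 and 0.89 CPM at day 21.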
